A study of Rattus norvegicus with 10 samples.

Results

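Integrins and the proteins that gather on their cytoplasmic side were followed in rat nucleus pulposus cells after knockdown of Bnip3, whose protein sits in the outer membrane of mitochondria and recruits them to autophagy. The members were all probesets whose platform symbol names an integrin alpha or beta subunit, or is 1 of a set list of adaptors, kinases and actin linkers of focal adhesions, with Hic5 counted as Tgfb1i1. This gave 38 probesets for 38 genes among 23188 non-control probesets, of which 15049 carry a gene name. The symbol pattern also takes in Itgb3bp, which encodes a centromere protein and no integrin. Itgav, Itga2, Itga2b, Itga3, Itga9, Itga11, Itgax, Itgb8, Pxn, Tln2 and Tns2 were not analysed here.

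Cells of the nucleus pulposus, the gelatinous core of the intervertebral disc, came from male Sprague Dawley rats 3 to 4 months old. In the 5 samples called ShCtrl they were transduced with a pLKO.1 lentivirus carrying a control hairpin, and in the 5 called ShBNIP3 with lentivirus carrying a hairpin against Bnip3. RNA was taken 4 days after transduction and hybridised to whole-transcript arrays, numbered 1 to 5 for ShCtrl and 6 to 10 for ShBNIP3. Every sample, controls included, therefore carries a lentiviral hairpin. The labels do not say how many animals or cultures stand behind a group, so the p-values reflect no more than how these samples vary among themselves, a spread that may be technical. Levels are the authors' normalized log2 values, group values are mean ± SD with n = 5, and differences are ShBNIP3 minus ShCtrl with the SE of the limma fit. A gene is called at background in a group when all 5 arrays read it below the 95th percentile of the array's antigenomic probesets, which was between 6.50 and 6.78.

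Integrins are receptors made of 1 alpha and 1 beta chain that span the cell membrane and bind matrix proteins such as fibronectin, laminins and collagens. Talin and kindlin bind the beta tail and switch the receptor on, and a scaffold of the pseudokinase ILK, a PINCH protein (Lims1 or Lims2) and a parvin (Parva or Parvb) ties it to actin. Focal adhesion kinase, paxillin-like adaptors, vinculin, zyxin, tensins and VASP join these sites and pass on force and growth signals. In the disc, nucleus pulposus cells attach through integrins to a matrix rich in laminin, fibronectin and collagen.

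Bnip3, the target of the hairpin, was read on the ShCtrl arrays at 14.29, 14.29, 13.94, 15.97 and 14.54 and on the ShBNIP3 arrays at 11.14, 11.26, 10.59, 11.31 and 12.68. The groups did not overlap, in the direction of the labels, with 10.8% of the control level left. Mean correlations of an array with the others of its group were 0.992, except for ShCtrl array 4 (0.983) and ShBNIP3 array 10 (0.986), and these 2 arrays also held the highest Bnip3 values of their groups. Results that rest on them are given with and without them. Of 14 listed nucleus pulposus markers 11 were measured, and Krt8, Krt18, Krt19, Tbxt and Shh were at background on all 10 arrays. The matrix genes Acan, between 11.28 and 14.26, and Col2a1, between 8.99 and 10.18, were above it. Of the 11, Car3 and Col2a1 fell (log2 -1.29 and -0.67, limma adjusted p = 0.0048 and 0.0133), and Cdh2, at background in ShCtrl, rose. Without arrays 4 and 10, 1 rose and 4 fell. The summed level of the list was 13.41 to 14.54 in ShCtrl and 12.22 to 13.81 in ShBNIP3, and its part in the members' changes was not tested.

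After Bnip3 knockdown 8 genes of adhesion adaptors and actin linkers were lower, and 2 integrin beta chains and 1 tensin were higher. Of the 38 members 8 fell and 3 rose (limma adjusted p under 0.05), or 21.1% and 7.89%, where 7.87% and 7.61% of all probesets fell and rose. In either direction 28.9% of the members were called, against 15.5% of all probesets. The falls were in Lims2, Parvb, Tgfb1i1, Rsu1, Vasp, Tns1, Parva and Lims1, and the rises in Itgb1, Itgb5 and Tns3. At least 2-fold were 3 of the falls and 1 of the rises, which holds for 2.74% and 1.44% of all probesets. The median difference of the members was -0.04, beside 0.02 for all probesets. At background in both groups were 13 members, and likewise 49.3% of all probesets, among which 2.47% were called; above it in at least 1 group, 28.1% of all probesets were. ShCtrl and ShBNIP3 did not overlap for 6 members that fell and 2 that rose, while groups fell or rose without overlap for 6.29% and 6.6% of all probesets. Lims2, a known fall when the members were picked, is in the counts of falls, of falls of at least 2-fold and of falls without overlap. These member shares are therefore a description only.

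**Figure D1:**
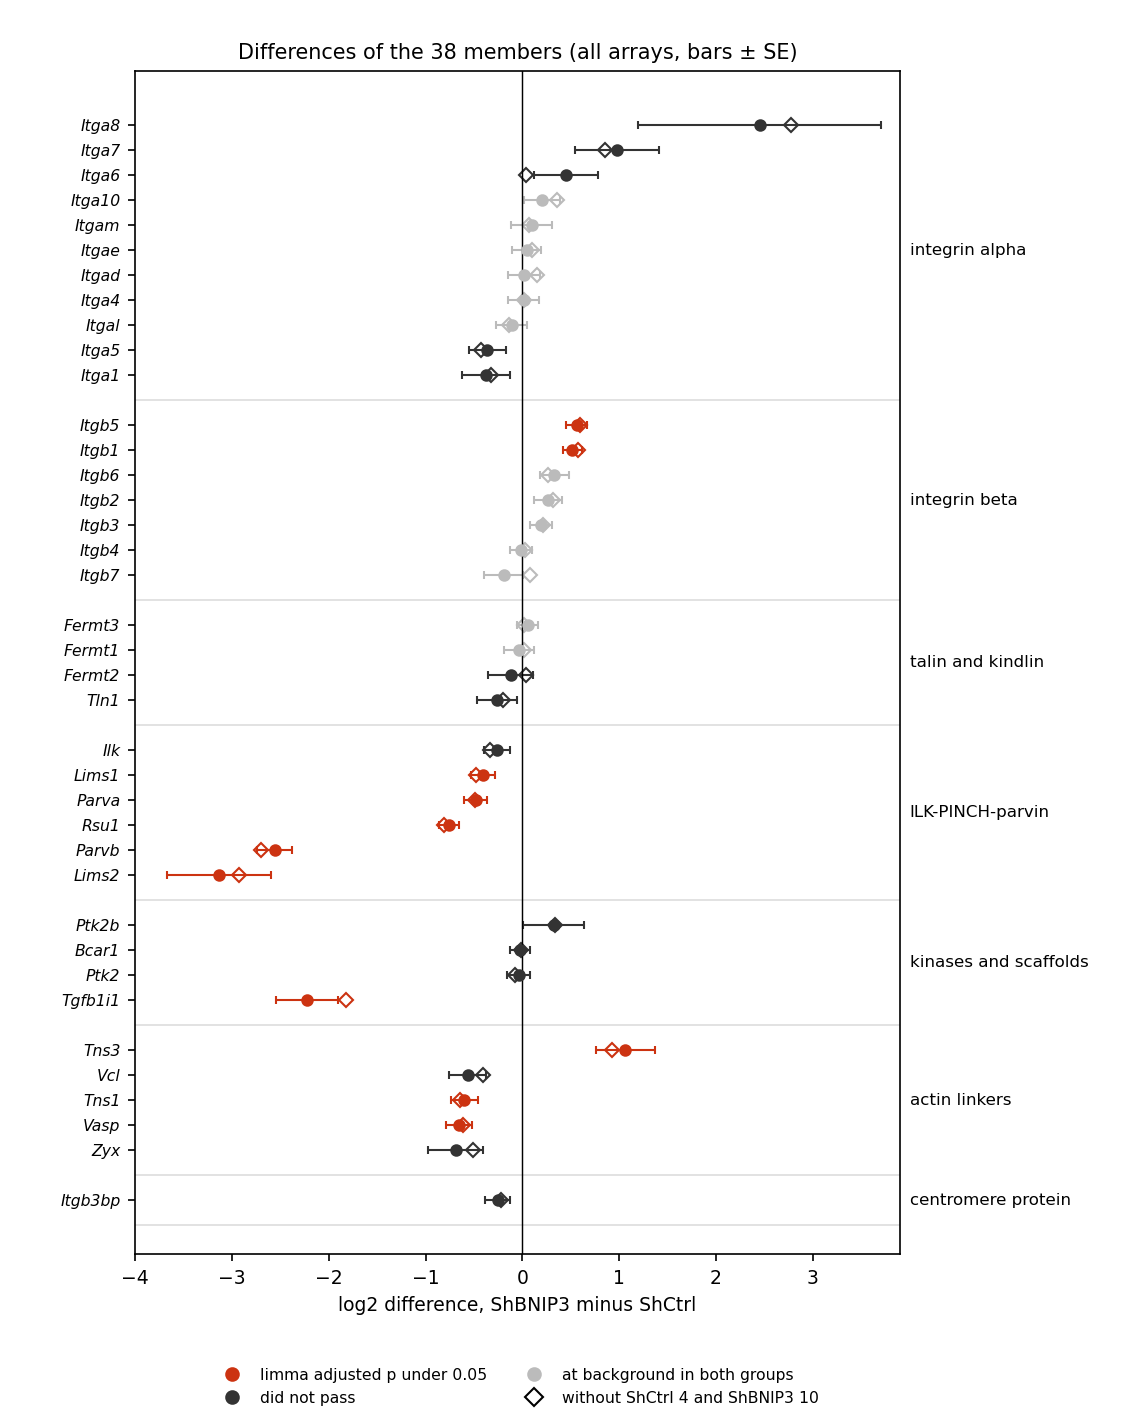
Log2 difference, ShBNIP3 minus ShCtrl, of each of the 38 members grouped by role. Filled circles with SE bars use all 10 arrays and open diamonds leave out ShCtrl array 4 and ShBNIP3 array 10; red marks members with limma adjusted p under 0.05 over all probesets and grey those at background in both groups. Parvb is drawn as measured, with its ShBNIP3 arrays at background. The ILK-PINCH-parvin group lies to the left of 0 and the called beta subunits to the right.

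The scaffold of ILK, PINCH and parvin fell in 5 of its 6 measured genes, counting Rsu1, which binds PINCH, and the largest falls were in Lims2 and Parvb. That is 83.3% of the group, where 7.87% of all probesets fell. All 6 were above background in at least 1 group, and of all such probesets 28.1% were called in either direction. The 5 include Lims2, a known fall, and Lims1, whose call was narrow. Lims2, a PINCH adaptor built of LIM domains, was read at 10.04, 10.09, 9.70, 12.83 and 10.50 in ShCtrl and at 6.91, 7.07, 7.20, 7.45 and 8.85 in ShBNIP3. Every ShBNIP3 array lay under every ShCtrl array, with arrays 4 and 10 the highest of their groups. The fall was 8.78-fold (log2 -3.13, SE 0.54, limma adjusted p = 0.00165, exact two-sided permutation p = 0.00794, the smallest that 5 against 5 arrays can give). Without arrays 4 and 10 it was 7.59-fold (log2 -2.92, SE 0.18, limma adjusted p = 6.89e-07). Since Lims2 was a known fall when the members were picked, its change is given as a description of the group and not as support for it.

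Its paralog Lims1, which encodes the other PINCH protein, was read at 14.46, 14.44, 14.54, 14.55 and 14.74 in ShCtrl and at 14.07, 13.92, 14.15, 14.10 and 14.47 in ShBNIP3. Only ShBNIP3 array 10 reached the ShCtrl range. The fall was 1.32-fold (log2 -0.40, SE 0.13, limma adjusted p = 0.0465). This call is narrow: with 1 array left out the adjusted p was under 0.05 in 1 of 10 fits, that without ShBNIP3 array 10, and at most 0.112, and without arrays 4 and 10 together it was 0.0147 (log2 -0.48). The per-array difference Lims2 minus Lims1 went from -3.91 ± 1.24 to -6.65 ± 0.60, given as a description only, since the fall of Lims2 was known.

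Parvb, which encodes beta-parvin, lay at 8.68, 8.96, 9.27, 8.52 and 9.25 in ShCtrl and at 6.26, 6.58, 5.94, 6.60 and 6.52 in ShBNIP3. All ShBNIP3 arrays were under their background level, so the fall is a bound, at least 4.70-fold (measured means 8.94 ± 0.34 and 6.38 ± 0.28, limma adjusted p = 2.29e-06). Array 4 was the lowest ShCtrl array and array 10 lay within the range of the other ShBNIP3 arrays. Parva, encoding alpha-parvin, lay at 13.66, 13.64, 13.71, 13.92 and 13.66 in ShCtrl and at 13.34, 13.06, 13.18, 13.13 and 13.48 in ShBNIP3. The groups did not overlap, and the fall was 1.40-fold (log2 -0.48, SE 0.12, limma adjusted p = 0.0155). The per-array difference Parva minus Parvb rose by 2.08 (SE 0.24) as measured. With the Parvb values under background set to that level, it rose by at least 1.75 (SE 0.21), an alternative chosen after the data were seen. Both are given as a description only, since the pair was compared because Parvb was above background in ShCtrl.

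Rsu1, a leucine-rich repeat protein that binds PINCH, had the tightest replicates of these adaptors. It was read at 16.32, 16.25, 16.37, 16.17 and 16.22 in ShCtrl and at 15.49, 15.38, 15.54, 15.51 and 15.61 in ShBNIP3. The 1.69-fold fall (log2 -0.76, SE 0.10, limma adjusted p = 0.000326) was several times the spread within either group, with SDs of 0.08 in both. Ilk, the pseudokinase at the centre of the scaffold, was the member of this group that did not pass. Its values were 12.72, 12.71, 13.12, 12.58 and 13.00 in ShCtrl and 12.67, 12.32, 12.57, 12.65 and 12.60 in ShBNIP3, which overlap, and it differed by -0.26 (SE 0.13, 95% interval -0.55 to 0.03, limma adjusted p = 0.235).

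**Figure D2:**
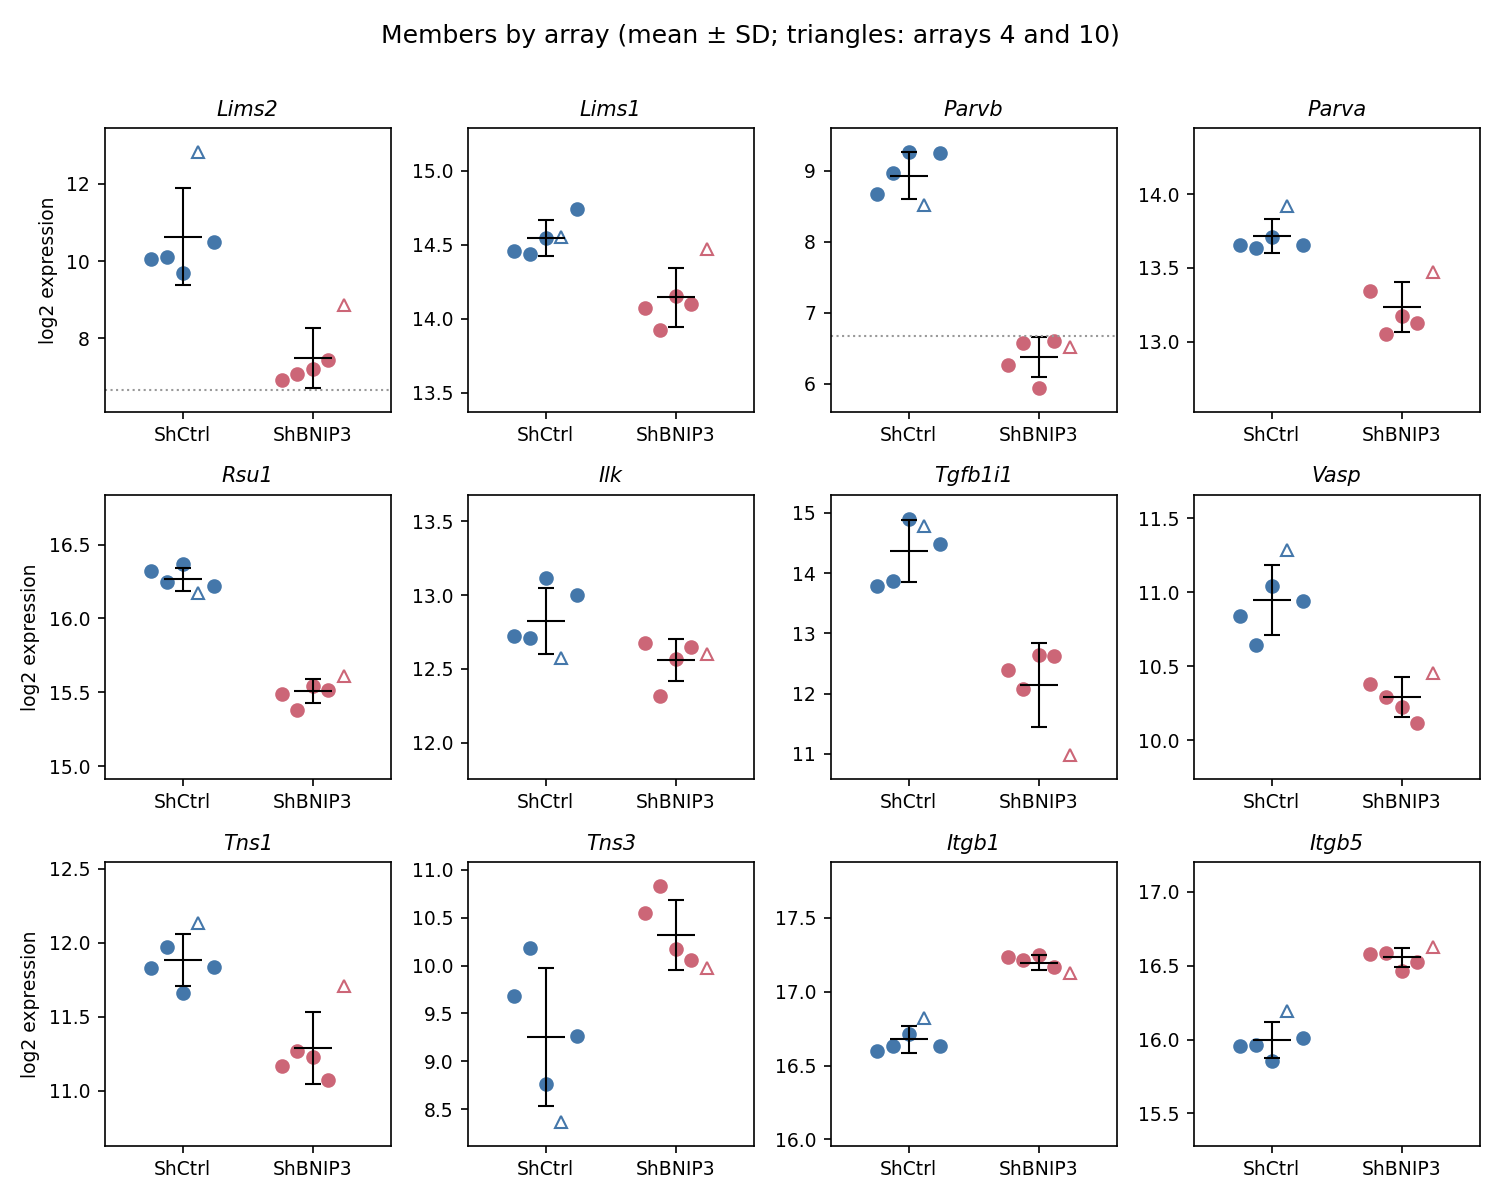
Log2 expression on each array for the 11 members with limma adjusted p under 0.05 and for Ilk, in ShCtrl (blue) and ShBNIP3 (red), each panel on its own axis. Bars are mean ± SD of 5 arrays, open triangles are ShCtrl array 4 and ShBNIP3 array 10, and the dotted line, where in range, is the mean background level; Lims2, Parvb, Parva, Rsu1, Tgfb1i1, Vasp, Itgb1 and Itgb5 show no overlap between the groups.

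Tgfb1i1, which encodes Hic5, a LIM adaptor of the paxillin family known in smooth muscle and in mechanically loaded cells, was lower on every ShBNIP3 array. It was read at 13.78, 13.86, 14.91, 14.78 and 14.49 in ShCtrl and at 12.40, 12.07, 12.64, 12.63 and 10.98 in ShBNIP3. ShBNIP3 array 10 held the lowest value, unlike for Lims2, where it was the highest of its group. The fall was 4.66-fold (log2 -2.22, SE 0.32, limma adjusted p = 0.000529), or 3.54-fold without arrays 4 and 10 (log2 -1.82, limma adjusted p = 0.000205). Of 8 smooth muscle and pericyte markers measured, Des (log2 -2.53) and Cspg4 (log2 -2.56) fell, 0 rose, 2 were at background in both groups, and the median was -0.48. This is 25% called, where 15.5% of all probesets and 28.1% of those above background in at least 1 group were. Without arrays 4 and 10, 2 of the 8 rose, Tagln and Myh11 (the latter at background), the same 2 fell, and the median was -0.21. The summed level of that list ran from 13.94 to 15.53 in ShCtrl, with array 4 the highest, and from 13.16 to 14.00 in ShBNIP3, and its part in the falls was not tested. In bulk RNA, fewer cells of a type and less RNA per cell cannot be told apart.

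Because Lims2, Parvb, Rsu1 and Tgfb1i1 fell while Itgb1 and Itgb5 rose, the 250 bases before the RefSeq starts of 6 of these genes are shown, 5′ to 3′, for comparison of their sequence. Promoter windows of RefSeq on GRCr8 were matched for 26 of the 38 members. Motifs were searched on both strands and are in capitals: ACGTG or GCGTG, the core bound by hypoxia-inducible factors; GGAATG, bound by TEAD factors; TGANTCA, bound by AP-1; GGGCGG, bound by Sp factors; and the CArG box, bound by serum response factor.
Lims2, the first of the starts listed (GRCr8 chr18:23827914-23828163, plus strand): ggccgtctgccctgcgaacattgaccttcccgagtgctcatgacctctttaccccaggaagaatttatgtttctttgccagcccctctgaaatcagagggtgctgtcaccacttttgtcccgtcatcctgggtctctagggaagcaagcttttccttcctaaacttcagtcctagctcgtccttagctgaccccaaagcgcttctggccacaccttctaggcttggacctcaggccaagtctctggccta
Lims2, the other start (GRCr8 chr18:23837454-23837703, plus strand): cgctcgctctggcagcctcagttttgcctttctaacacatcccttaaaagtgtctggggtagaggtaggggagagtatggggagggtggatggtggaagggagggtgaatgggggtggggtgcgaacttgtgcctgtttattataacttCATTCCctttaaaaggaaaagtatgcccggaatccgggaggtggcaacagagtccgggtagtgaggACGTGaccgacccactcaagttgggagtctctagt
Parvb (GRCr8 chr7:117239988-117240237, plus strand): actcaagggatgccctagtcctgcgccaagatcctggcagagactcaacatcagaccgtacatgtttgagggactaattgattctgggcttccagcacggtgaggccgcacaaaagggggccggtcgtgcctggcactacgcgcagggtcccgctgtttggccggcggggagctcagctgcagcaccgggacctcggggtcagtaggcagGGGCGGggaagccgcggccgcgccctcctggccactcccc
Rsu1 (GRCr8 chr17:81286031-81286280, minus strand): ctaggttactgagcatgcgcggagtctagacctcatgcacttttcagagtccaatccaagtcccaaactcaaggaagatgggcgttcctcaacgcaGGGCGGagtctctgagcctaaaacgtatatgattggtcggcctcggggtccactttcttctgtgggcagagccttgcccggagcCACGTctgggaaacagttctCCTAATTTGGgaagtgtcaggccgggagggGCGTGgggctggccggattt
Tgfb1i1 (GRCr8 chr1:192258856-192259105, plus strand): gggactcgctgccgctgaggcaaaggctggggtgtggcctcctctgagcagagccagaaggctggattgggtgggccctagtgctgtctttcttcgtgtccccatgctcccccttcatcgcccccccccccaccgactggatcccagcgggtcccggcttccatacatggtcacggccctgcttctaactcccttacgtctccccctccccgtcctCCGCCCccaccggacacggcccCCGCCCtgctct
Itgb1 (GRCr8 chr19:73602027-73602276, plus strand): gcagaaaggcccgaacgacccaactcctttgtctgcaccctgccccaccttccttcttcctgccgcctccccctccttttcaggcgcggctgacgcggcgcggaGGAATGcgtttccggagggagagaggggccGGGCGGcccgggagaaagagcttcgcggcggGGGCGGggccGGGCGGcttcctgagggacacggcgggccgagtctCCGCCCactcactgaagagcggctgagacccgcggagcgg
Itgb5 (GRCr8 chr11:80449374-80449623, minus strand): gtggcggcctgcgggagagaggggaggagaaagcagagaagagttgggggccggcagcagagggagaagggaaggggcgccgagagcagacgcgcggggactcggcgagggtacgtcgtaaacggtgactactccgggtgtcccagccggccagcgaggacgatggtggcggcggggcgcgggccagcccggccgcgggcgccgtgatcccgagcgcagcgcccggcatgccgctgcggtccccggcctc
Matches of different motifs did not overlap in these windows. The hypoxia core, found in 36.7% of all 33469 windows, was in the second Lims2 window and in that of Rsu1. GGAATG, found in 12.1%, was in the second Lims2 window and in that of Itgb1. The CArG box, found in 1.5%, was in the Rsu1 window, and TGANTCA, found in 6.34%, was in none of the 7. GGGCGG, found in 30.5%, was in the windows of Parvb, Rsu1, Tgfb1i1 and Itgb1. The windows of the genes that fell thus shared no single motif of those searched, and a match is a description of letters, not of a bound site.

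Among the receptors themselves 2 of 7 beta chains, Itgb1 and Itgb5, rose and 0 of 11 alpha chains passed with all arrays. Of all probesets 7.61% rose and 15.5% were called. Only 2 beta and 5 alpha chains were above background in at least 1 group, and of all such probesets 28.1% were called. Without arrays 4 and 10, 2 alpha chains rose and 1 fell, where 9.84% and 10.1% of all probesets did. Itgb1, the beta chain that pairs with most alpha chains of matrix receptors, was read at 16.60, 16.63, 16.72, 16.82 and 16.63 in ShCtrl and at 17.23, 17.21, 17.25, 17.17 and 17.12 in ShBNIP3. It rose 1.43-fold (log2 0.52, SE 0.10, limma adjusted p = 0.00382), small in size but well outside the SDs of 0.09 and 0.05. Itgb5, which pairs with the alpha v chain to bind vitronectin, was read at 15.96, 15.96, 15.86, 16.19 and 16.01 in ShCtrl and at 16.58, 16.59, 16.46, 16.52 and 16.63 in ShBNIP3. The groups did not overlap and the rise was 1.47-fold (log2 0.56, SE 0.11, limma adjusted p = 0.00323). Both rises passed in all 10 fits with 1 array left out.

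The other 5 beta chains, Itgb2, Itgb3, Itgb4, Itgb6 and Itgb7, were at background in both groups, with differences between -0.19 and 0.33, and have no fold here. At background too were 6 alpha chains, Itga4, Itga10, Itgad, Itgae, Itgal and Itgam, with differences between -0.11 and 0.20. Several of these, with Itgb2, Itgb7 and Fermt3, are receptors and activators of leukocytes. Of 12 macrophage and leukocyte markers 10, among them Ptprc and Csf1r, were also at background on every array. Cd68 and Cd14, which other cells also make, rose 2.83-fold and 2.17-fold, and the summed level of the list was 11.05 to 11.77 in ShCtrl and 11.97 to 13.25 in ShBNIP3. In all, 3 of the 12 were called higher, not all of them above background, and 0 lower. This is 25% called, where 15.5% of all probesets were. All 7 endothelial, 5 platelet, 6 skeletal muscle and 4 epithelial markers measured were at background in both groups.

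Of the 5 alpha chains above background, Itga8 and Itga7 differed most, and both depended on arrays 4 and 10. Itga8, which with Itgb1 binds nephronectin and fibronectin, was read at 6.19, 6.86, 6.59, 12.75 and 6.40 in ShCtrl and at 8.60, 9.19, 9.97, 9.37 and 13.92 in ShBNIP3. On ShCtrl array 4 it was above all ShBNIP3 arrays but array 10, while on 3 of the other ShCtrl arrays it was under the background level. With all arrays the difference was 2.45 (SE 1.25, 95% interval -0.27 to 5.17, limma adjusted p = 0.239). Without arrays 4 and 10 it was 2.77 (SE 0.25, limma adjusted p = 1.28e-05), with no overlap left. Without array 4 alone it was 3.70 (limma adjusted p = 0.00828), and without array 10 alone 1.52 (limma adjusted p = 0.43).

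Itga7, a laminin receptor chain known from muscle, was read at 9.85, 9.70, 9.67, 11.13 and 9.54 in ShCtrl and at 11.02, 10.79, 10.18, 10.20 and 12.61 in ShBNIP3. Apart from ShCtrl array 4, each ShCtrl value lay under each ShBNIP3 value. The difference was 0.98 with all arrays (SE 0.43, limma adjusted p = 0.165), 0.86 without arrays 4 and 10 (SE 0.19, limma adjusted p = 0.00701) and 1.27 without array 4 alone (limma adjusted p = 0.045). Without array 10 alone it was 0.57 (limma adjusted p = 0.267). Itga5, the alpha chain of the main fibronectin receptor, lay at 14.38, 14.65, 14.60, 15.12 and 14.63 in ShCtrl and at 14.07, 14.14, 14.31, 14.05 and 15.00 in ShBNIP3. It differed by -0.36 with all arrays (SE 0.19, limma adjusted p = 0.268), by -0.25 without array 4 (limma adjusted p = 0.439), by -0.53 without array 10 (limma adjusted p = 0.0309) and by -0.42 without both (limma adjusted p = 0.0285).

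Itga6, another laminin receptor chain, ran from 9.77 to 11.04 in ShCtrl and from 10.01 to 11.85 in ShBNIP3, array 10 being the highest. Its difference was 0.45 (SE 0.33, 95% interval -0.27 to 1.17, limma adjusted p = 0.446) and 0.04 without arrays 4 and 10. Itga1, a collagen and laminin receptor chain, ran from 11.86 to 12.90 in ShCtrl and from 11.48 to 12.56 in ShBNIP3, a difference of -0.38 (SE 0.25, 95% interval -0.92 to 0.16, limma adjusted p = 0.386). For Itga6 and Itga1 the groups overlapped over most of their range.

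**Figure D3:**
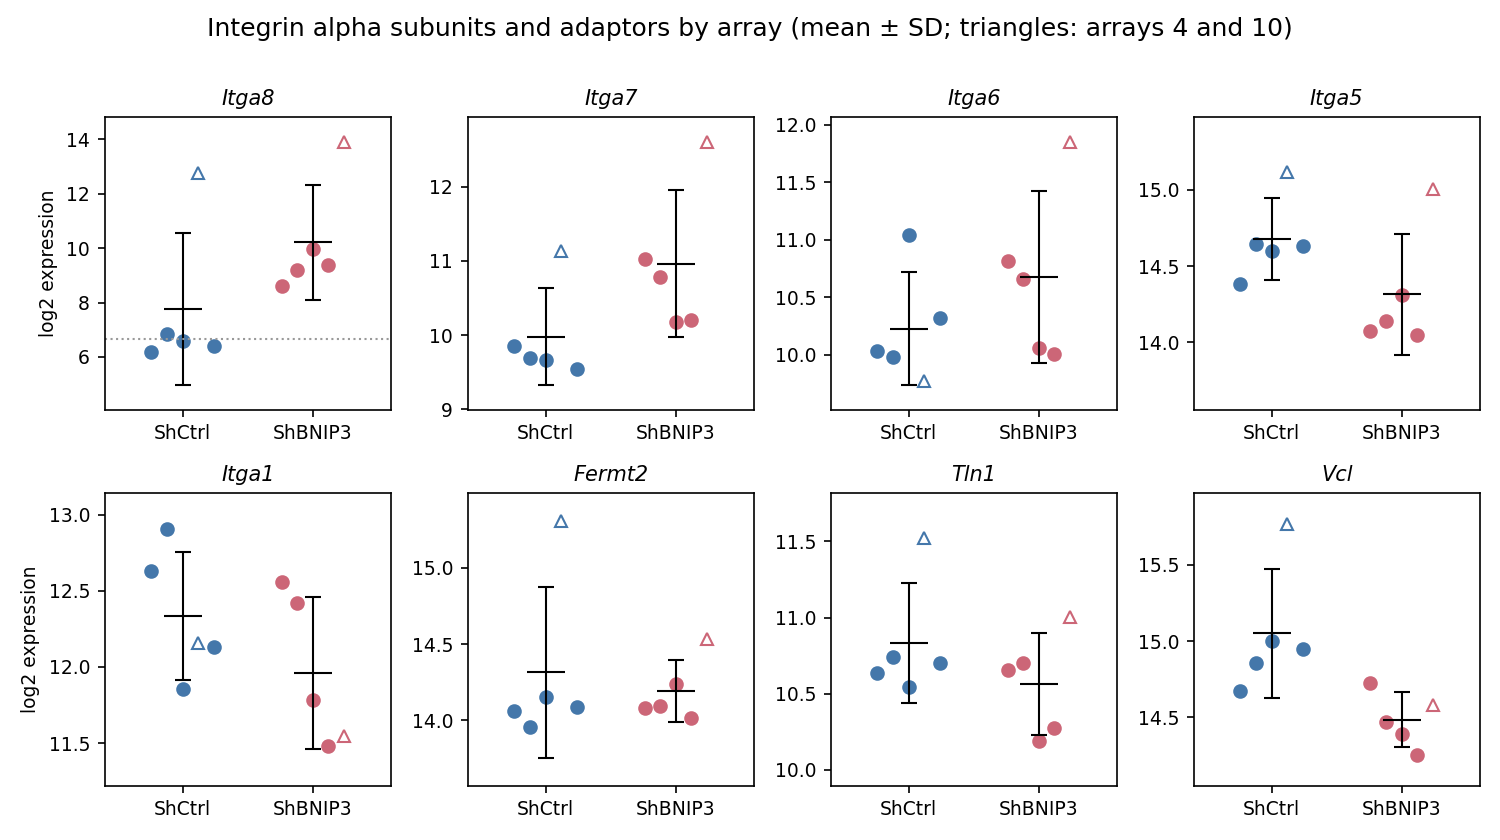
Log2 expression on each array for the 5 integrin alpha chains above background and for Fermt2, Tln1 and Vcl, in ShCtrl (blue) and ShBNIP3 (red), each panel on its own axis. Bars are mean ± SD of 5 arrays and open triangles are ShCtrl array 4 and ShBNIP3 array 10, which hold the highest values of their groups for Itga8 (12.75 and 13.92), Itga7, Itga5, Fermt2 and Tln1; the dotted line is the mean background level.

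The activators of integrins, talin and kindlin, did not pass. Tln1, talin, was read at 10.64, 10.74, 10.55, 11.52 and 10.70 in ShCtrl and at 10.65, 10.70, 10.19, 10.27 and 11.00 in ShBNIP3, a difference of -0.27 (SE 0.21, 95% interval -0.71 to 0.18, limma adjusted p = 0.474). Fermt2, the kindlin of mesenchymal cells, ran from 13.96 to 15.31 in ShCtrl and from 14.02 to 14.53 in ShBNIP3, a difference of -0.12 (SE 0.23, 95% interval -0.62 to 0.38, limma adjusted p = 0.813). Array 4 was the highest ShCtrl array for both. Without it the differences were -0.09 for Tln1 (limma adjusted p = 0.787) and 0.13 for Fermt2 (limma adjusted p = 0.602). Without arrays 4 and 10 they were -0.20 and 0.04 (limma adjusted p = 0.392 and 0.861). The sign of the Fermt2 difference thus depended on array 4. Fermt1 and Fermt3 were at background in both groups.

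The kinases and their docking protein differed little. Ptk2, focal adhesion kinase, ran from 10.83 to 11.25 in ShCtrl and from 10.95 to 11.20 in ShBNIP3, a difference of -0.04 (SE 0.12, 95% interval -0.29 to 0.22, limma adjusted p = 0.898). Bcar1, a docking protein phosphorylated on stretch, differed by -0.02 (SE 0.11, 95% interval -0.25 to 0.21, limma adjusted p = 0.93). Ptk2b, the related kinase Pyk2, spread more, from 9.07 to 10.53 and from 9.12 to 10.79, and differed by 0.33 (SE 0.32, 95% interval -0.36 to 1.01, limma adjusted p = 0.588). The intervals of Ptk2 and Bcar1 leave out a 1.25-fold change in either direction, whereas that of Ptk2b does not leave out a 2-fold rise. The per-array difference Ptk2 minus Ptk2b did not pass (-0.36, SE 0.46, exact two-sided permutation p = 0.452, also 0.452 adjusted over 4 pairs).

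Linkers to actin went both ways, with 2 of 5 lower and 1 higher, where 7.87% and 7.61% of all probesets fell and rose. All 5 were above background, and of all probesets above it in at least 1 group 28.1% were called. Vasp, which lengthens actin filaments, lay at 10.84, 10.64, 11.04, 11.28 and 10.94 in ShCtrl and at 10.38, 10.29, 10.22, 10.11 and 10.45 in ShBNIP3, without overlap. The fall was 1.58-fold (log2 -0.66 with SE 0.13, limma adjusted p = 0.00526). The tensins, which bind beta tails and actin, moved in opposite directions. Tns1 was read at 11.83, 11.97, 11.66, 12.13 and 11.84 in ShCtrl and at 11.17, 11.27, 11.23, 11.07 and 11.71 in ShBNIP3, where array 10 alone reached the ShCtrl range. Its fall was 1.51-fold (log2 -0.60 with SE 0.14, limma adjusted p = 0.0125).

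Tns3 was read at 9.68, 10.19, 8.76, 8.37 and 9.26 in ShCtrl and at 10.54, 10.83, 10.17, 10.05 and 9.97 in ShBNIP3, where ShCtrl array 2 lay within the ShBNIP3 range. The rise was 2.09-fold (log2 1.06 with SE 0.30, limma adjusted p = 0.0305). The call was lost without ShCtrl array 3 or 5 or ShBNIP3 array 6, 7 or 8, with limma adjusted p between 0.0554 and 0.0784. The per-array difference Tns1 minus Tns3 dropped by 1.66 (SE 0.41, exact two-sided permutation p = 0.00794, 0.0106 adjusted over 4 pairs). Those 4 include Lims2 minus Lims1 and Parva minus Parvb, given above as a description only, so the adjusted value depends on them.

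Vcl, vinculin, which carries force from talin to actin, was read at 14.68, 14.86, 15.00, 15.77 and 14.95 in ShCtrl and at 14.73, 14.47, 14.39, 14.25 and 14.58 in ShBNIP3. It differed by -0.57 (SE 0.19, 95% interval -0.97 to -0.16, limma adjusted p = 0.0611), and passed without ShCtrl array 1 (limma adjusted p = 0.0433). Without ShCtrl array 4, the highest of its group, the difference was -0.39 (limma adjusted p = 0.064). Without arrays 4 and 10 it was -0.41 (limma adjusted p = 0.0549). Zyx, zyxin, a LIM protein that gathers at strained actin, was read at 9.09, 9.56, 10.21, 11.02 and 9.97 in ShCtrl and at 9.01, 9.17, 9.25, 9.37 and 9.61 in ShBNIP3. Its difference was -0.69 (SE 0.28, limma adjusted p = 0.135), or -0.91 without ShCtrl array 1, the lowest of its group (limma adjusted p = 0.0342). Without ShCtrl array 4, the highest, it was -0.43 (limma adjusted p = 0.208), and without arrays 4 and 10 -0.51 (limma adjusted p = 0.122). The groups overlapped for Vcl and for Zyx, for Vcl only through ShCtrl array 1. Itgb3bp, the centromere protein, differed by -0.25 (SE 0.13, limma adjusted p = 0.245).

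Arrays 4 and 10 shared a pattern over these genes. Of the 25 members above background in at least 1 group, 18 were higher on ShCtrl array 4 than the mean of the other ShCtrl arrays and 19 were higher on ShBNIP3 array 10 than the mean of the other ShBNIP3 arrays, with 15 higher on both and 3 lower on both. The deviations were 6.24 and 4.63 for Itga8, 2.75 and 1.69 for Lims2 and 1.44 and 2.06 for Itga7, while Tgfb1i1 lay 0.52 above on array 4 and 1.45 below on array 10 (-1.45). Across the 25 members the deviations of the arrays correlated with r = 0.821, and r = 0.511 over 24 members without Itga8, as a description of genes measured on the same pair of arrays. Without these arrays 9 members fell and 5 rose, where 10.1% and 9.84% of all probesets did, 19.9% together. These include all 8 that fell and all 3 that rose with every array, and Itga5, Itga7 and Itga8 in addition.

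**Figure D4:**
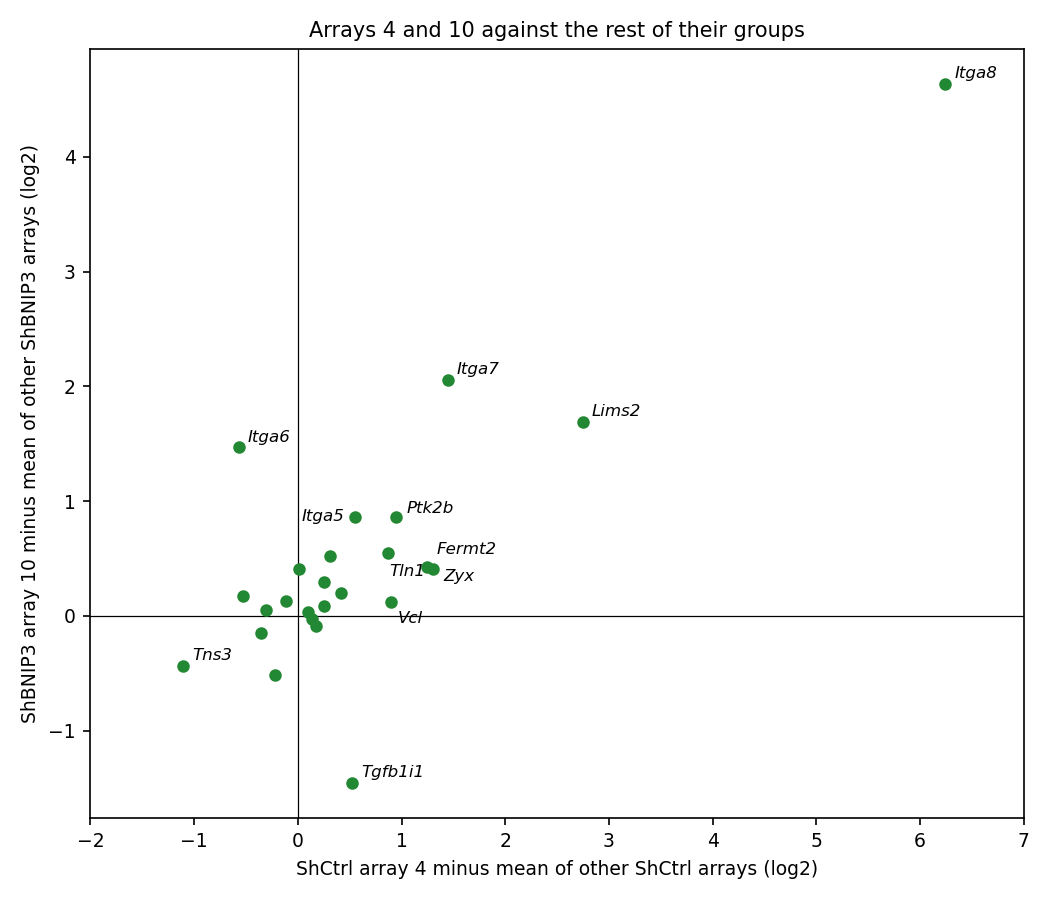
Deviation of ShCtrl array 4 from the mean of the other 4 ShCtrl arrays (x axis) against that of ShBNIP3 array 10 from the mean of the other 4 ShBNIP3 arrays (y axis), both on the log2 scale, for the 25 members above background in at least 1 group. Itga8 lies at 6.24 and 4.63, Lims2 and Itga7 follow, and Tgfb1i1 and Itga6 are apart from the diagonal.

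Other genes of the adhesion pathway, listed by role, had 11 called higher and 15 lower among 91 measured of 108 listed, or 28.6% called. Only 5 of the 91 were at background in both groups, and of all probesets above background in at least 1 group 28.1% were called, so this share is near that of genes at such levels. Integrin ligands had 3 of 23 higher and 6 lower, with a median difference of -0.15. Mfge8, a secreted ligand of alpha v integrins, ran from 16.45 to 16.58 in ShCtrl and from 14.25 to 14.66 in ShBNIP3 and fell 4.31-fold (limma adjusted p = 2.46e-07, log2 -2.11, SE 0.12). Spp1, osteopontin, rose 1.65-fold (limma adjusted p = 0.000451), also without overlap. Tgfbi fell 2.29-fold and periostin, Postn, rose 2.43-fold, but with 1 array left out their limma adjusted p was over 0.05 in 5 and 7 of 10 fits, at most 0.0549 and 0.082. Vcam1, a ligand of leukocyte integrins, is among the 3 called higher (limma adjusted p = 0.0134) but was under background on all 10 arrays, so it gives no direction. Fibroblast and annulus markers, of which the collagen chains Col1a1, Col1a2 and Col3a1 are also on the ligand list, had 4 of 9 lower and 0 higher, and their summed level was 20.01 to 20.11 in ShCtrl and 19.65 to 19.91 in ShBNIP3. Its part in the ligand falls was not tested.

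Signalling proteins at adhesions had 5 of 32 higher and 3 lower, with a median of 0.15. This is 25% called, where 28.1% of all probesets above background in at least 1 group were. Asap1, which turns off the GTPase Arf and binds focal adhesion kinase, fell 2.77-fold (limma adjusted p = 9.79e-05, log2 -1.47, SE 0.17), and Efs, of the same docking family as Bcar1, fell 2.26-fold (limma adjusted p = 0.000611). Crk, the adaptor that binds such docking proteins, fell 1.76-fold (limma adjusted p = 0.0041). Arhgef7, an activator of Rac and Cdc42, ran from 11.36 to 11.57 in ShCtrl and from 12.69 to 13.04 in ShBNIP3 and rose 2.59-fold (log2 1.38, SE 0.11, limma adjusted p = 6.6e-06). Pik3r1, a regulatory subunit of phosphoinositide kinase, rose 1.76-fold, with limma adjusted p = 0.0372 and at most 0.0928 with 1 array left out, over 0.05 in 8 of 10 such fits. Membrane partners had 1 of 11 higher and 0 lower, Cd82, a tetraspanin, which rose 1.56-fold (limma adjusted p = 0.00727), or 9.09% called. Without arrays 4 and 10, Cd82, Cd81, Cd47 and Slc3a2 rose and Sdc4 fell, 4 and 1 of the 11, where 19.9% of all probesets were called.

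Actin linkers and LIM proteins had 2 of 25 higher and 6 lower, with the lowest median of these lists, -0.39. This is 32% called, near the 28.1% of all probesets above background in at least 1 group. Synpo2, a bundler of actin known from muscle, ran from 7.94 to 10.11 in ShCtrl and from 6.36 to 6.84 in ShBNIP3, where it was above background on 1 array only. It was called lower (limma adjusted p = 0.000898), with a measured difference of -2.10 (SE 0.33), -1.96 with values under background set to that level, and -1.69 as measured without arrays 4 and 10. Pdlim5, a LIM protein of stress fibres, fell 2.16-fold (limma adjusted p = 0.0042) and the actin crosslinker filamin A, Flna, 1.88-fold (limma adjusted p = 0.00592). Kank2, which binds talin, fell 1.78-fold (limma adjusted p = 0.00764). Limd1, a LIM protein of the zyxin family, rose 1.69-fold (limma adjusted p = 0.0018). The list's median deviation from the rest of the group was 0.58 on array 4 and 0.24 on array 10. Without both arrays 2 rose and 10 fell, with a median of -0.27, where 9.84% and 10.1% of all probesets rose and fell.

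**Figure D5:**
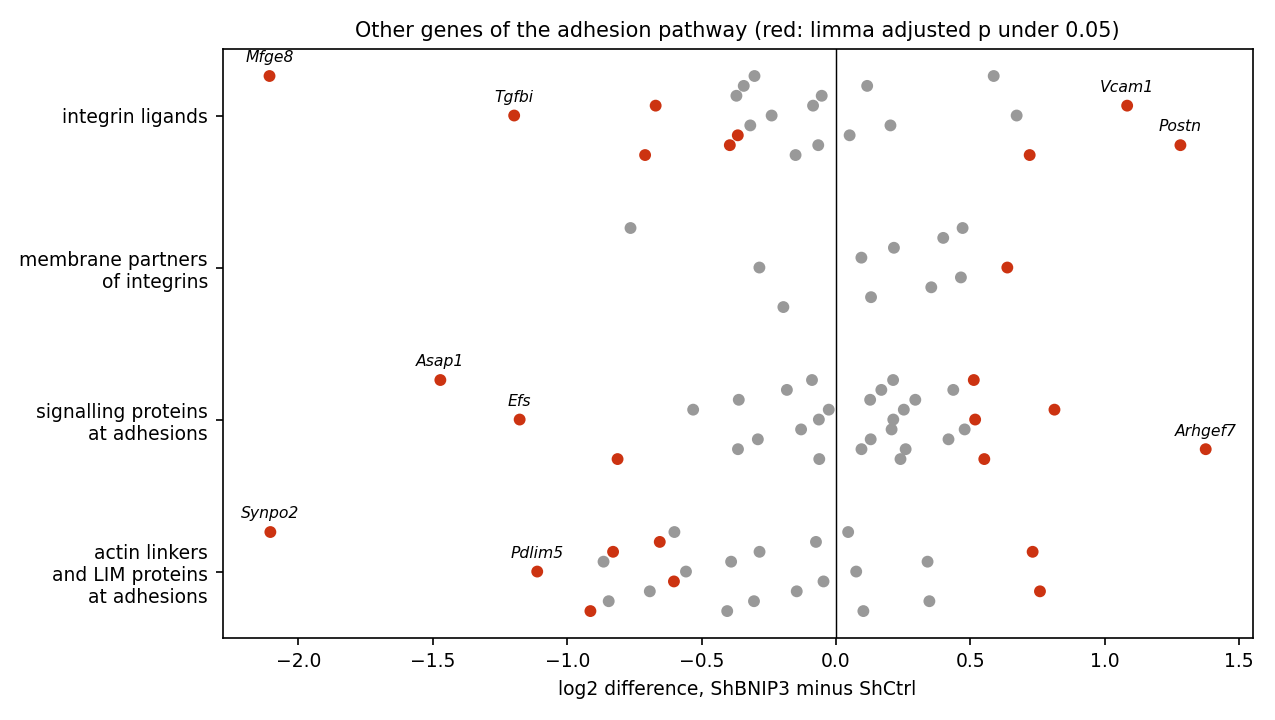
Log2 difference, ShBNIP3 minus ShCtrl, of 91 other genes of the adhesion pathway in 4 lists by role; vertical scatter within a list only separates the points. Red points have limma adjusted p under 0.05 over all probesets, and called genes beyond 1 on the log2 scale are named, as measured. Mfge8 and Synpo2 are lowest at -2.11 and -2.10, Synpo2 with 4 of 5 ShBNIP3 arrays under background, Vcam1 is under background on all arrays, and Arhgef7 is highest at 1.38.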

How the data were processed

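The value table of the 10 arrays was used as deposited. Its values are log2 expression per probeset, which the authors made by sst-rma normalization of biotin-labelled GeneChip WT Plus cDNA, per the labels. The tool is the Transcriptome Analysis Console, from the submitters' processing notes. Its version and a genome build are not given in the sources used here. Of 24834 probesets, 1646 controls were left out. Names came from the platform annotation, and all 15049 Entrez identifiers were found in RefSeq (GRCr8). No member shared its values with another probeset.

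Groups were taken from the titles. Differences were tested with limma 3.58.1 (lmFit, eBayes) in R 4.3.3 over 23188 probesets, adjusted by Benjamini-Hochberg, at a threshold of 0.05; limma was tested on simulated data. Paralog pairs used exact permutation of per-array differences, with 11 pairs listed. The 4 compared held no gene at background in both groups, though Parvb was above background in ShCtrl only. Adjustment ran over these 4, with Lims2 minus Lims1 among them. A fold against a group at background is a bound, taken against the higher of the background level and the probeset's own value. Members and lists were chosen with earlier results of these data known. Values are given for every called member, the 6 largest uncalled differences above background, set main family genes, and up to 5 called genes per pathway list. Alternatives were the variance prior, quantile or median scaling, a background filter, array weights, the 2-fold threshold of the labels and left-out arrays. For arrays, their number limits the precision.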

Additional observations from a re-analysis of the deposited data

Results flagged for a closer look

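Within groups of 5 arrays, 52 sets of values were looked at (25 members and Bnip3, in 2 groups). In 9 of them an array was set apart from the rest of its group by a gap of over 0.71 of the whole range. For a single set chance gives about 1 in 20, but the 52 sets come from the same 10 arrays, so their count is a description only. ShCtrl array 4 was that array in 6 of them. It stood high for Itga8 at 12.75 (nearest other array 6.86), Lims2 at 12.83 (10.50), Fermt2 at 15.31 (14.16), Tln1 at 11.52 (10.74), Itga7 at 11.13 (9.85) and Parva at 13.92 (13.71). ShBNIP3 array 10 was set apart in the other 3, high for Itga8 at 13.92 (9.97), Lims2 at 8.85 (7.45) and Itga5 at 15.00 (14.31).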

How the results depend on the processing

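The 8 falls and 3 rises among the members were counted again under each alternative. Rises numbered 5 with array weights, 5 without ShCtrl array 4 and ShBNIP3 array 10, and between 2 and 5 with 1 array left out, where the 5 came without ShCtrl array 4; falls numbered between 7 and 9 with 1 array left out. With a change of at least 2-fold required, 1 member rose and 3 fell, 969 of all probesets were called in place of 3590, and 9 other adhesion genes in place of 26. With 1 array left out, all probesets called numbered 2746 to 3960 and other adhesion genes 21 to 28, and the Bnip3 difference was -3.53 to -2.87. The pair differences ranged from -2.99 to -2.19 for Lims2 minus Lims1, 1.98 to 2.23 for Parva minus Parvb, -1.87 to -1.38 for Tns1 minus Tns3 and -0.64 to -0.16 for Ptk2 minus Ptk2b. Setting values under background to that level, chosen after seeing the data, moved Parva minus Parvb to 1.75 and none of the other 3 pairs.

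Of 595 alternative values of single members, 567 stayed on their side of the threshold, 15 lost a call (Lims1 and Tns3) and 13 gained one (Vcl, Zyx, Itga5, Itga7 and Itga8); none of the 595 changed the sign of a called difference. Lims1 was also lost with quantile normalization (log2 -0.38, limma adjusted p = 0.0538). Vcl passed with a trended and robust variance, with the background filter and with array weights (limma adjusted p = 0.0388, 0.0367 and 0.0485). The cause was not tested. No paired analysis was made, because the labels give no pairing and the running array numbers do not show whether there was one. Probesets at background, 13 of the 38 members, carry no information on direction here.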

Other observations

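Some genes of the pathway lists passed only without ShCtrl array 4 and ShBNIP3 array 10, where 16 of 91 rose and 21 fell in place of 11 and 15. Calls also grew over all probesets, where 9.84% rose and 10.1% fell in place of 7.61% and 7.87%. The genes given here were named after their values were seen. Sdc4, a heparan sulfate proteoglycan that works beside integrins, was read at 14.35 on array 4 and between 11.79 and 12.05 on the other ShCtrl arrays, and at 13.19 on array 10 and between 11.14 and 11.47 on the other ShBNIP3 arrays. Its difference was -0.76 with all arrays (limma adjusted p = 0.38) and -0.67 without them (limma adjusted p = 0.00243). Fhl1, a LIM protein of muscle and stress fibres, lay 2.12 and 1.52 above the other arrays of its group on arrays 4 and 10, and differed by -0.87 with all arrays (limma adjusted p = 0.246) and by -0.74 without them (limma adjusted p = 0.0185).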
